A study of Mus musculus with 24 samples.

Results

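Transcripts of 10 nicotinic acetylcholine receptor subunits were followed in mouse hippocampus: the alpha-type subunit genes Chrna1, Chrna2, Chrna3, Chrna4, Chrna5 and Chrna7 and the beta-type subunit genes Chrnb1, Chrnb2, Chrnb3 and Chrnb4. They were taken by gene name from a table of 51912 genes, and each name matched 1 row. The study examined hippocampal gene expression in the offspring of male mice given nicotine or saline chronically. RNA was sequenced from the ventral and the dorsal hippocampus of 12 C57BL/6J offspring, giving 24 libraries in 8 groups of 3. The nicotine-sired groups were male ventral, female ventral, male dorsal and female dorsal, and the saline-sired groups were the same 4. The labels name no engineered allele, no dose and no age. Each animal gave both regions, and animals are named here by group and by the letter A, B or C in their title. Each combination of sire treatment and sex had its own title number, so an effect of title group cannot be told apart from one of treatment and sex. Sires and litters are not in the labels, so p-values measure only the spread between libraries of these animals, some of which may share a sire.

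Nicotinic receptors are pentameric cation channels that open when acetylcholine or nicotine binds at the interface between subunits. In brain, receptors built from the alpha4 and beta2 subunits bind nicotine with high affinity, and alpha7 forms receptors of its own with high calcium permeability. In the hippocampus, cholinergic fibres from the septum release acetylcholine onto principal cells and interneurons, where nicotinic receptors act on transmitter release and excitability. The alpha5 and beta3 subunits are accessory subunits that join other subunits, alpha3 with beta4 is typical of autonomic ganglia and the medial habenula, alpha2 marks a class of hippocampal interneurons at the border of the stratum oriens, and alpha1 with beta1 belongs to the muscle receptor.

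Library totals ran from 32049770 to 47486547 counts, and all 10 subunit genes passed the filter on low counts in every fit. As a check of the region labels, 8 ventral hippocampus genes summed to 315 to 455 CPM in the ventral libraries and to 118 to 247 CPM in the dorsal ones, with no overlap. The 5 dorsal hippocampus genes did not separate the regions, at 434 to 582 CPM in ventral and 372 to 629 CPM in dorsal libraries. CPM is the count per 1e6 counts of a library size scaled by the TMM method. Markers of other brain tissue were raised in 6 libraries, by 3 lists chosen after seeing the data. They are called the 6 libraries with raised markers below, and where those transcripts came from was not tested. The 6 habenula genes (Tac2, Gpr151, Pou4f1, Chat, Slc18a3 and Gng8) summed to 33.3 CPM in the ventral library of saline-sired female C, against 5.2 to 8.97 CPM in the other 11 ventral libraries. They summed to 13.9 CPM in the dorsal library of nicotine-sired male B, against 3.85 to 6.84 CPM in the other dorsal ones. The longer list of 13 medial habenula markers summed to 90.7 CPM in the same ventral library, against 39.9 to 62.6 CPM in the others, and to 64.8 CPM in the same dorsal library, against 40.4 to 58.7 CPM in the others. The 5 neocortex genes (Cux2, Rorb, Rasgrf2, Lamp5 and Fezf2) summed to 412 and 520 CPM in the ventral and the dorsal library of nicotine-sired female A, against at most 249 CPM elsewhere. In both libraries 4 of the 5 genes were above all others of the region. Fezf2 was not, at 39.8 CPM in ventral (34.6 to 48.1 elsewhere) and 29 CPM in dorsal (19.4 to 33.5 elsewhere). The 7 olfactory bulb genes (Doc2g, Cdhr1, Eomes, Sp8, Th, Scgn and Tbx21) summed to 88.2 CPM in the ventral library of saline-sired male B and to 127 CPM in the dorsal library of saline-sired male A, against at most 16.7 CPM elsewhere. Choroid plexus markers ranged from 51.3 to 2022 CPM in the ventral and from 65.2 to 5755 CPM in the dorsal libraries. The 12 thalamus markers summed to 134 to 199 CPM in ventral and 118 to 282 CPM in dorsal libraries. The highest, 282 CPM, was a saline-sired dorsal library, against at most 192 CPM in nicotine-sired dorsal ones. No library was set aside for thalamus markers. No gene of these lists was at 0 throughout a region. Refits without these 6 libraries stand beside the region results and those of the scarce members. They have fewer than 3 libraries in ventral nicotine-sired females, saline-sired females and saline-sired males. The same holds for dorsal nicotine-sired females, nicotine-sired males and saline-sired males.

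Chrnb2, Chrna4, Chrna7 and Chrna5 led the nicotinic receptor transcripts in both regions, in that order of means, and the other 6 were scarce. Levels of different genes are compared as RPKM, the CPM divided by the exon length in kilobases. Chrnb2 averaged 6.59 ± 0.454 RPKM in ventral and 5.8 ± 0.413 RPKM in dorsal libraries (SD, n = 12 each). Chrna4 averaged 5.96 ± 1.01 RPKM in ventral and 3.94 ± 1.05 RPKM in dorsal libraries. Chrna7 averaged 2.75 ± 0.561 RPKM in ventral and 2.14 ± 0.362 RPKM in dorsal libraries, below Chrna4 in all 24 libraries. Chrnb2 lay above Chrna4 in 9 of 12 ventral and 11 of 12 dorsal libraries, and their ranges overlapped in both regions. Chrna5 averaged 1.16 ± 0.211 RPKM in ventral and 1.61 ± 0.49 RPKM in dorsal libraries. It lay below Chrna7 in all 12 ventral libraries, with no overlap, and in 9 of 12 dorsal libraries, where the ranges overlapped, and above Chrna1 in all 24. Of the summed RPKM of the 10 genes, Chrna5 held 6.66% ± 1.33 in ventral and 11.3% ± 3.47 in dorsal libraries, while Chrna4 held 34.1% ± 5.44 in ventral and 27.2% ± 6.09 in dorsal libraries.

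**Figure D1:**
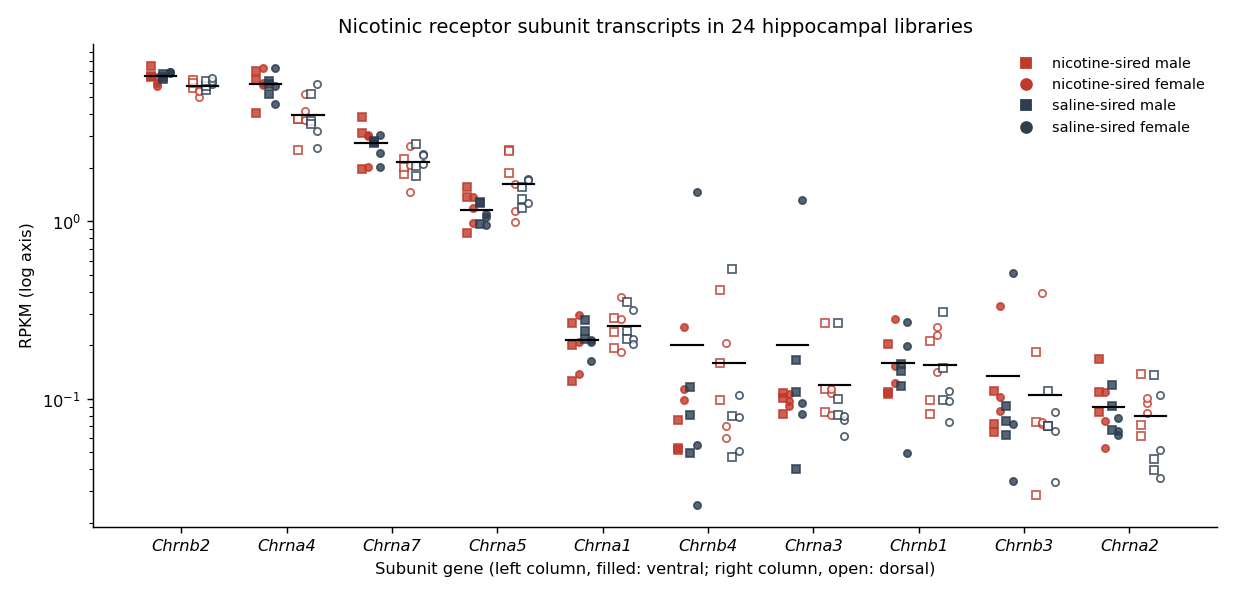
Level of each subunit gene in the 24 libraries, in RPKM on a log axis; filled symbols are ventral and open symbols dorsal libraries, colour marks the sire treatment, shape the sex, and black lines the mean of the 12 libraries of a region. Chrnb2, Chrna4, Chrna7 and Chrna5 stand above the other 6 genes, and single libraries reach 1.45 RPKM for Chrnb4 and 1.32 RPKM for Chrna3.

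Below Chrna5, the muscle-type subunit Chrna1 averaged 0.213 ± 0.0531 RPKM in ventral and 0.258 ± 0.0634 RPKM in dorsal libraries. Chrnb4, Chrna3, Chrnb1, Chrnb3 and Chrna2 averaged between 0.0902 and 0.202 RPKM in ventral and between 0.0802 and 0.158 RPKM in dorsal libraries. The ranges of each neighbouring pair in this lower part of the order overlapped, so no order among these genes is read from them. Per library, counts ran from 3 to 234 for these 5 genes. The 6 remaining nicotinic subunit genes, a list outside the 10 members, were lower still. Chrna6 had 126 counts and Chrna10 had 83 counts over all 24 libraries, Chrne had 55, Chrna9 had 13, Chrnd had 1 and Chrng had 0.

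Chrna4, Chrnb2 and Chrna7 were higher and Chrna5 was lower in ventral than in dorsal hippocampus. A difference is called here when edgeR's quasi-likelihood adjusted p over all genes tested is under 0.05, and fold changes are log2 values with their standard errors. Over both sire treatments, 4 of 10 members were called for region, against 29.2% of 19849 genes. This fit has no term for the animal and treats both libraries of an animal as independent. With the animal as a block, edgeR's adjusted p was 3.6e-04 for Chrna4, 8.7e-05 for Chrnb2 and 7.1e-04 for Chrna5. Higher in ventral were 3 of 10, against 14.3% of genes, and lower was 1 of 10, against 14.9%. In tissue RNA, fewer cells of a type and less RNA per cell cannot be told apart.

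Chrna4 encodes the alpha4 subunit (ENSMUSG00000027577, chromosome 2, 181018380 to 181043546, minus strand; GRCm38, here and below). Its level was 20.4, 30.0 and 36.8 CPM (lowest, median, highest) in ventral libraries, against 12.6, 18.7 and 29.8 CPM in dorsal libraries. The ranges overlapped, but within animals the ventral library was higher in 11 of 12, the exception being saline-sired female C at 28.8 CPM in ventral and 29.8 CPM in dorsal. The log2 fold change was 0.60 ± 0.14 (adjusted p = 0.00283). Without the 6 libraries with raised markers it was 0.64 ± 0.19 (adjusted p = 0.0275).

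Chrnb2 encodes the beta2 subunit that pairs with alpha4 (ENSMUSG00000027950, chromosome 3, 89746195 to 89764632, minus strand). Its level was 48.3, 54.9 and 62.8 CPM in ventral libraries, against 42.1, 49.0 and 53.5 CPM in dorsal libraries (lowest, median, highest). The step was small but went the same way in 12 of 12 animals, from 0.11 to 0.27 on the log2 scale within an animal. The log2 fold change was 0.19 ± 0.03 (adjusted p = 2.0e-04), and 0.17 ± 0.04 (adjusted p = 0.00293) without the 6 libraries. Of the 8380 bp of Chrnb2 exons, 1365 bp lie opposite exons of Adar, the gene of an RNA-editing enzyme. Adar itself was higher in ventral hippocampus by 0.19 ± 0.04 (adjusted p = 0.00171), in 11 of 12 animals. The kit marked strand, but the strand setting of the counting is not given in the sources used here, so the value of Chrnb2 is uncertain to that extent.

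Chrna7 encodes the alpha7 subunit (ENSMUSG00000030525, chromosome 7, 63098692 to 63212569, minus strand). Its level was 8.87, 12.6 and 17.4 CPM in ventral libraries, against 6.55, 9.38 and 12.3 CPM in dorsal libraries (lowest, median, highest). The ranges overlapped, and the ventral library was higher in 11 of 12 animals, all but saline-sired female A. The log2 fold change was 0.35 ± 0.12 (adjusted p = 0.0266). The call held with DESeq2 (adjusted p = 0.00961) and with the animal as a block (0.35, adjusted p = 0.0027). It ended without the filter on low counts (adjusted p = 0.0589) and without the 6 libraries with raised markers (0.31 ± 0.12, adjusted p = 0.0786). It also ended when any 1 of 7 animals was left out (nicotine-sired male A or C, nicotine-sired female B, saline-sired male A or B, saline-sired female B or C), at adjusted p = 0.0538 to 0.0744.

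Chrna5, the accessory alpha5 subunit (ENSMUSG00000035594, chromosome 9, 54980880 to 55007779, plus strand), ran the other way. Its level was 2.69, 3.56 and 4.87 CPM in ventral libraries, against 3.11, 4.95 and 7.89 CPM in dorsal libraries (lowest, median, highest). The ventral library was lower in 10 of 12 animals, the exceptions being nicotine-sired female C and saline-sired male A. The log2 fold change was -0.44 ± 0.11 (adjusted p = 0.00304), and -0.53 ± 0.12 (adjusted p = 0.00323) without the 6 libraries.

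**Figure D2:**
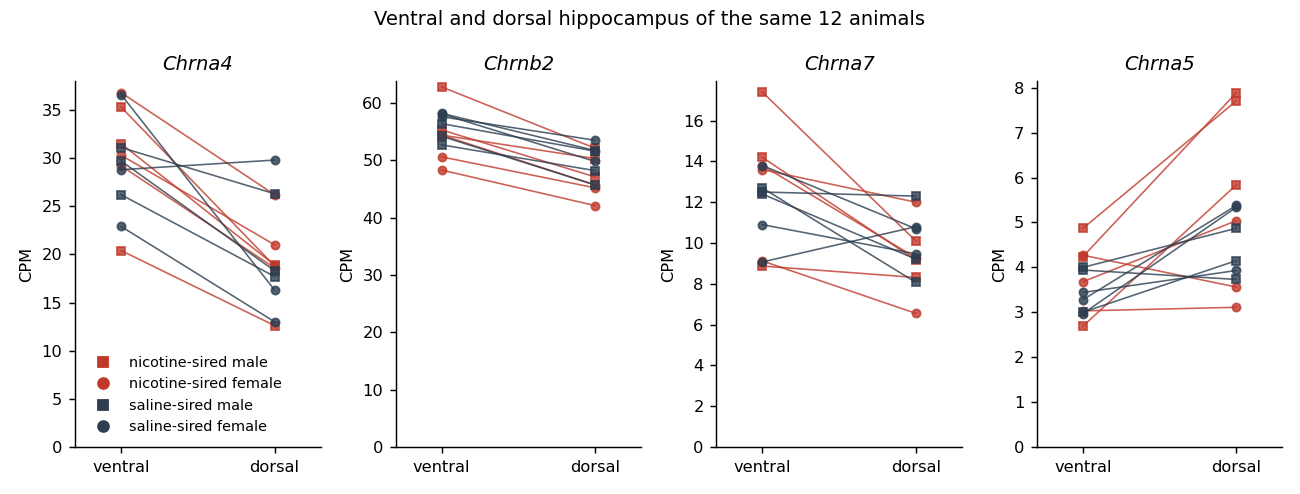
CPM of Chrna4, Chrnb2, Chrna7 and Chrna5 in the ventral (left) and the dorsal (right) hippocampus, 1 line per animal, coloured by sire treatment with shape marking sex; axes start at 0. Chrnb2 is higher in ventral in 12 of 12 animals, Chrna4 and Chrna7 in 11 of 12, and Chrna5 is lower in ventral in 10 of 12.

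The bases before the start of these 4 genes are shown because 3 of them moved together between regions and the fourth moved against them. Each sequence is the 250 bases upstream of a RefSeq start in GRCm38.p6, read 5′ to 3′ on the gene's strand. Capitals mark GGGCGG or its reverse complement CCGCCC, the core of the GC box that the factor Sp1 is known to bind. Chrna5 has 2 RefSeq starts.
Chrna4, chr2:181039178-181039427, minus strand: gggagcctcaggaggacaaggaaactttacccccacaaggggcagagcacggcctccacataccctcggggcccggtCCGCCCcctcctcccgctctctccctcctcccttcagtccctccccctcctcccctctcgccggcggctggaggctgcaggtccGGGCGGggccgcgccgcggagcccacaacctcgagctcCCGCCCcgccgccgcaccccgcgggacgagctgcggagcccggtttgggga
Chrnb2, chr3:89764633-89764882, minus strand: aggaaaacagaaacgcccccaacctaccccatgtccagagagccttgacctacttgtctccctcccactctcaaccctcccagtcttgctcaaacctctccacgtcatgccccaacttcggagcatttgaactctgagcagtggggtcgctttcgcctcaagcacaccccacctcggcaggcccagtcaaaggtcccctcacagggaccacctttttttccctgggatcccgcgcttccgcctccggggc
Chrna7, chr7:63212527-63212776, minus strand: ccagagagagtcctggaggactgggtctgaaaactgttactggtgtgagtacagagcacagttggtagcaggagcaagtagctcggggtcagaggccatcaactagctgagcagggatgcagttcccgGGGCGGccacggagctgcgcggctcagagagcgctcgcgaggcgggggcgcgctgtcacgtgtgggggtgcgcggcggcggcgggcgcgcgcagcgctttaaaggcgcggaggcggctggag
Chrna5 first start, chr9:54980630-54980879, plus strand: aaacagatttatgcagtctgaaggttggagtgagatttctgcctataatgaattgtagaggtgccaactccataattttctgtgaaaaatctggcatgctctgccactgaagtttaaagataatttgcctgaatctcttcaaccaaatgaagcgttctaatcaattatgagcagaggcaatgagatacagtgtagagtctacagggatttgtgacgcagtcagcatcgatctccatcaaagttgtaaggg
Chrna5 second start, chr9:54981238-54981487, plus strand: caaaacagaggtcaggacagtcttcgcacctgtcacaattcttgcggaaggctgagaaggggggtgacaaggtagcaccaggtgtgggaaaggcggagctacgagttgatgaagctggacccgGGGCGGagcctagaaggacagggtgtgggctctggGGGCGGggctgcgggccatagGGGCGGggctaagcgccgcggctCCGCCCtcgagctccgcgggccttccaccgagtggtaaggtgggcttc

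The Chrna4 window held 3 matches, the Chrna7 window 1, the second Chrna5 window 4, and the Chrnb2 window and the first Chrna5 window 0. Among 32851 RefSeq windows of this length, 32.7% held at least 1 match on either strand, and 5 of the 9 windows found for 8 of the 10 members did. GC content was 74.4% in the Chrna4, 67.2% in the Chrna7, 59.6% in the Chrnb2 window, and 40.0% and 65.2% in the first and the second Chrna5 window. The Chrna4 window and the second Chrna5 window lie inside the gene spans given above, and the Chrna7 window overlaps its span. There the RefSeq start differs from the outermost GENCODE one. A match describes letters in these windows only.

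The other 6 members were not called for region. Chrna1 had the smaller ventral value in 9 of 12 animals, at -0.28 ± 0.16 (adjusted p = 0.196). Chrna2, Chrna3, Chrnb1, Chrnb3 and Chrnb4 had log2 fold changes from -0.04 to 0.40 with standard errors from 0.24 to 0.55. The highest of these, Chrna3 at 0.40 ± 0.41, was at -0.05 ± 0.20 without the 6 libraries and at -0.21 without saline-sired female C alone, and the lowest, Chrnb4 at -0.04 ± 0.55, was at -0.39 ± 0.30 without the 6. Over the 10 members the median was 0.17, with and without the 6 libraries, against -0.01 over all genes. Oligodendrocyte markers (6 genes) also differed between regions, summing to 3293 to 4606 CPM in ventral and 4692 to 8644 CPM in dorsal libraries. Markers of interneurons (16 genes) summed to 1443 to 1644 CPM in ventral and 1230 to 1799 CPM in dorsal libraries, and 6 pan-neuronal markers to 4565 to 5945 CPM in ventral and 4306 to 6453 CPM in dorsal libraries. The part of cell makeup in the region differences was not tested.

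The region comparison was repeated within each sire treatment. In nicotine-sired offspring 3 of 10 members were called, against 16.9% of genes. These were Chrnb2 (0.21 ± 0.05, adjusted p = 0.00383) and Chrna4 (0.67 ± 0.20, adjusted p = 0.0231), higher in ventral against 8.72% of genes, and Chrna5 (-0.48 ± 0.15, adjusted p = 0.03), lower against 8.15% of genes. In saline-sired offspring only Chrnb2 was called (0.17 ± 0.05, adjusted p = 0.0202), 1 of 10 against 14.5% of genes, with 6.78% of genes higher and 7.72% lower. There Chrna4 was at 0.53 ± 0.19 (adjusted p = 0.0749), Chrna5 at -0.41 ± 0.15 (adjusted p = 0.0738) and Chrna7 at 0.24 ± 0.16 (adjusted p = 0.363). With the animal as a block, Chrna4 (0.57, adjusted p = 0.00966) and Chrna5 (-0.40, adjusted p = 0.0228) passed in saline-sired offspring too, and Chrna7 passed in nicotine-sired offspring (0.46, adjusted p = 0.00723, against 0.0543 without the block). The block rests on pairing by title, which the libraries bear out less clearly in saline-sired animals, as given below. Without saline-sired female C, Chrna4 (0.75, adjusted p = 0.0103) and Chrna5 (-0.50, adjusted p = 0.0481) passed in saline-sired offspring, as did Chrna5 without nicotine-sired male B (adjusted p = 0.0415). Chrna7 passed in nicotine-sired offspring without male B (adjusted p = 0.0275) or female A (0.0473). The call of Chrnb2 in saline-sired offspring ended without male A, female A or female B (adjusted p = 0.0737, 0.107 and 0.0713). In nicotine-sired offspring the call of Chrna4 ended without the filter on low counts (adjusted p = 0.0515) and without male A or B or female B or C (adjusted p = 0.0637 to 0.0836), and that of Chrna5 without male A (0.0833) or female B (0.16). Leaving out the 6 libraries with raised markers ended the calls of Chrnb2 in saline-sired offspring (0.16 ± 0.05, adjusted p = 0.0768) and of Chrna4 in nicotine-sired offspring (0.74 ± 0.27, adjusted p = 0.0872).

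The region difference itself was then compared between nicotine-sired and saline-sired offspring. None of the 10 members was called by edgeR, against 0% of 19849 genes. At an unadjusted p under 0.05 there were 0 members and 945 genes (4.76%), and by DESeq2 0 members. For the 4 members called for region, the nicotine-sired minus saline-sired difference of the log2 region step was 0.14 ± 0.27 for Chrna4, 0.04 ± 0.07 for Chrnb2, 0.24 ± 0.23 for Chrna7 and -0.07 ± 0.21 for Chrna5. For Chrna4, Chrna7 and Chrna5, a difference as large as the region step itself lies within 2 standard errors. These values average over the sexes, which differed for Chrna5. Its log2 steps within animals were -0.88, -1.09 and -0.65 in nicotine-sired males and -0.04, -0.44 and 0.25 in nicotine-sired females. In saline-sired animals they were 0.08, -0.28 and -0.46 in males and -0.70, -0.82 and -0.19 in females. The region step was not tested by sex.

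For sire treatment, no subunit gene passed edgeR's test in either region, in males, in females, over both sexes or between the sexes. Chrna5 in the dorsal hippocampus came nearest to a call. In dorsal libraries, 0 of 10 members were called over both sexes (background 0.0784% of 19130 genes), in males (1.78%) and in females (0.0314%). The same held for the difference of the treatment effect between the sexes (2.24%), for female minus male (0.183%) and for any difference among the 4 title groups (1.5%). In ventral libraries, 0 of 10 were called over both sexes (1.75% of 19224 genes), in males (3.21%), in females (0.0312%), for the sex difference of treatment (1.07%), for female minus male (0.291%) and among title groups (3.65%). At an unadjusted p under 0.05 there were 0 of 10 members over both sexes in either region, against 15.7% of all genes in ventral and 10.8% in dorsal libraries. In dorsal libraries there were 1 in males (17.6% of all genes), 2 in females (13.3%), 3 for the sex difference (20.2%), 2 for female minus male (8.12%) and 2 among title groups (17.1%). In ventral libraries there were 0 in males (15.8%), 2 in females (13.9%), 1 for the sex difference (14.2%), 0 for female minus male (11.9%) and 0 among title groups (19.5%). DESeq2 called Chrna5 in 3 dorsal comparisons (males, the sex difference and title groups) and 0 members in the other 9, and gave no adjusted p for up to 5 of the scarce members.

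In the dorsal hippocampus of males, Chrna5 had 7.89, 5.84 and 7.71 CPM in nicotine-sired animals, against 3.73, 4.87 and 4.15 CPM in saline-sired animals. The lowest nicotine-sired male lay above the highest saline-sired male, at counts of 319, 196 and 297 against 159, 196 and 166. The share of all genes that part 3 against 3 libraries in this way was not counted, here or for the members below. No weight is therefore put on such a gap. The log2 fold change was 0.75 ± 0.20, with an edgeR adjusted p = 0.0816 and a DESeq2 adjusted p = 0.0167. In dorsal females, Chrna5 had 3.11, 5.04 and 3.56 CPM in nicotine-sired animals, against 5.38, 5.34 and 3.93 CPM in saline-sired animals, and these ranges overlapped. The fold change in females was -0.32 ± 0.20 (adjusted p = 0.504). The female minus male difference of the treatment effect was -1.06 ± 0.28, with an edgeR adjusted p = 0.067 and a DESeq2 adjusted p = 0.0143.

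The edgeR value for Chrna5 lay close to the threshold. In dorsal males its adjusted p ran from 0.0167 to 0.121 over 7 other settings, of which 2 called it (DESeq2, and edgeR without the filter on low counts at 0.0481), and from 0.0394 to 0.243 in the 12 refits without 1 library, 1 of which called it (without nicotine-sired female A). Without the 6 libraries with raised markers the fold change was 0.79 ± 0.21 (adjusted p = 0.102), with fewer than 3 libraries in each male group. In the ventral hippocampus of the same males, Chrna5 had 4.24, 2.69 and 4.87 CPM in nicotine-sired animals, against 3.94, 4.0 and 3.0 CPM in saline-sired animals, a fold change of 0.10 ± 0.20 (adjusted p = 0.869). In dorsal males, choroid plexus markers summed to 2155, 1853 and 68 CPM in nicotine-sired animals, against 5693, 165 and 163 CPM in saline-sired animals. Blood cell markers summed to 623, 403 and 552 CPM in nicotine-sired animals, against 427, 431 and 334 CPM in saline-sired animals. With the choroid plexus level in the fit the Chrna5 fold change was 0.75 ± 0.20 (adjusted p = 0.0758). The part of blood was not tested.

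Chrnb2 showed smaller steps in females that did not pass adjustment. In dorsal females it had 42.1, 45.7 and 45.2 CPM in nicotine-sired animals, against 49.8, 51.7 and 53.5 CPM in saline-sired animals. In ventral females it had 48.3, 54.4 and 50.6 CPM in nicotine-sired animals, against 58.1, 58.2 and 57.6 CPM in saline-sired animals. The groups did not overlap in either region, without a share over all genes to set beside this, and both regions came from the same 6 females. The fold changes were -0.21 ± 0.07 in dorsal (adjusted p = 0.231, unadjusted p = 0.0068) and -0.18 ± 0.07 in ventral females (adjusted p = 0.283, unadjusted p = 0.0213). In males they were 0.04 ± 0.07 in dorsal and 0.08 ± 0.07 in ventral hippocampus, with overlapping groups. The sex difference of treatment was -0.25 ± 0.09 in dorsal (adjusted p = 0.16) and -0.26 ± 0.10 in ventral hippocampus (adjusted p = 0.238).

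Chrna4 and Chrna7 had small fold changes by sire treatment over both sexes, none past the test. Chrna4 averaged 30.6 ± 5.8 CPM in nicotine-sired and 29.2 ± 4.65 CPM in saline-sired ventral libraries, and 19.3 ± 4.39 CPM in nicotine-sired and 20.2 ± 6.42 CPM in saline-sired dorsal libraries (SD, n = 6 each). Chrna7 averaged 12.8 ± 3.27 CPM in nicotine-sired and 11.9 ± 1.68 CPM in saline-sired ventral libraries, and 9.23 ± 1.8 CPM in nicotine-sired and 10.1 ± 1.48 CPM in saline-sired dorsal libraries. Over both sexes the fold changes of Chrna4 were 0.07 ± 0.14 in ventral and -0.07 ± 0.22 in dorsal, and those of Chrna7 were 0.11 ± 0.17 in ventral and -0.13 ± 0.14 in dorsal hippocampus. Over both sexes the median fold change of the 10 members was -0.01 in ventral and 0.23 in dorsal hippocampus, against 0.01 in ventral and 0.00 in dorsal hippocampus over all genes. Without the 6 libraries with raised markers the members' medians were 0.21 in ventral and 0.19 in dorsal hippocampus. Chrna4 was then at -0.03 ± 0.18 in ventral and -0.24 ± 0.30 in dorsal, and Chrna7 at 0.18 ± 0.19 in ventral and -0.06 ± 0.11 in dorsal hippocampus.

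**Figure D3:**
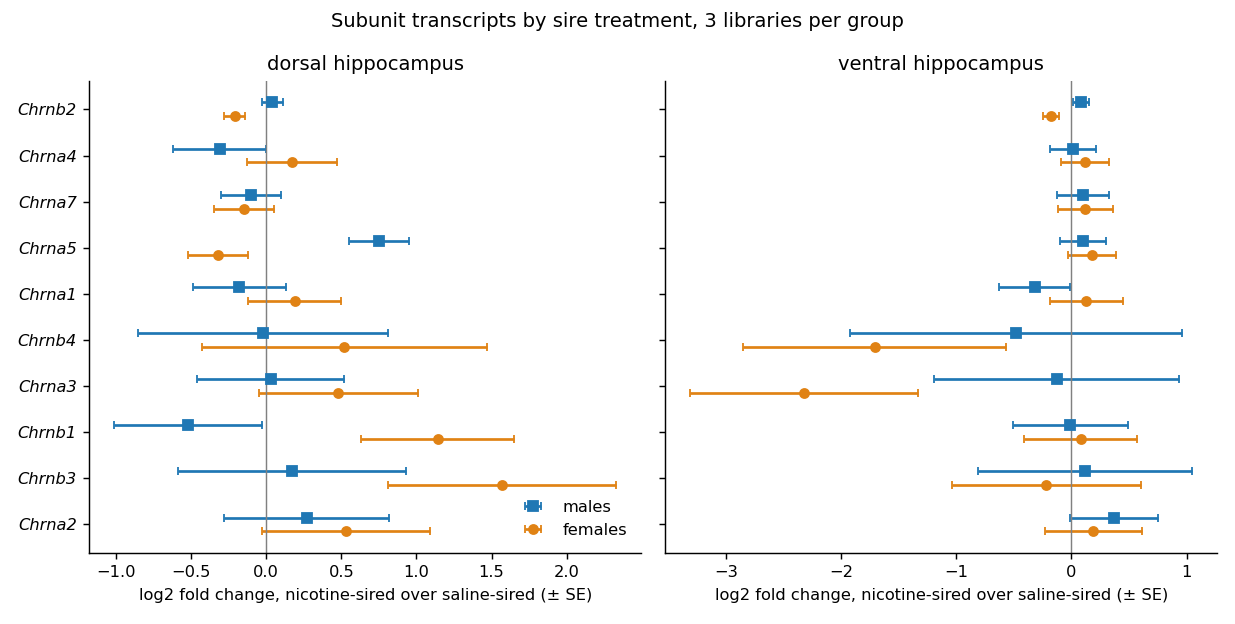
log2 fold change of each subunit gene, nicotine-sired over saline-sired, with its standard error, in males (squares) and females (circles) of the dorsal and the ventral hippocampus, 3 libraries per group. None of the values passed edgeR's test; Chrna5 in dorsal males is at 0.75, and the wide bars of Chrna3 and Chrnb4 in the ventral panel go with 1 saline-sired female library.

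Among the scarce members, Chrna3, Chrnb4 and Chrnb3 each had single libraries far above the rest. Chrna3 and Chrnb4, neighbours of Chrna5 on chromosome 9, had 6.94 and 5.4 CPM in the ventral library of saline-sired female C. The other 11 ventral libraries had at most 0.864 CPM of Chrna3 and 0.939 CPM of Chrnb4. That library was also the highest in habenula genes, as given above, and the medial habenula is a site where alpha3 and beta4 are known to be abundant. The 3 genes lie within 67900 bp, with gaps of 2331 bp between Chrna5 and Chrna3 and 1591 bp between Chrna3 and Chrnb4. Chrna5, at 3.44 CPM in that library, lay inside the range of the other ventral libraries (2.69 to 4.87 CPM).

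In dorsal libraries the same pair was highest in saline-sired male A (1.41 CPM of Chrna3 and 1.99 CPM of Chrnb4), the library with raised olfactory bulb markers. Next came nicotine-sired male B (1.4 CPM of Chrna3 and 1.52 CPM of Chrnb4), the dorsal library with raised habenula markers. Without the 6 libraries Chrna3 averaged 0.471 ± 0.109 CPM in ventral and 0.477 ± 0.097 CPM in dorsal libraries (SD, n = 9 each), and Chrnb4 averaged 0.312 ± 0.253 CPM in ventral and 0.37 ± 0.194 CPM in dorsal libraries. With all libraries, the ventral averages were 1.05 ± 1.86 CPM for Chrna3 and 0.751 ± 1.48 CPM for Chrnb4. The ventral fold change of Chrna3 by sire treatment in females was -2.32 ± 0.99 (adjusted p = 0.341) with all libraries and 0.10 ± 0.47 (adjusted p = 0.981) without the 6. In the same comparison Chrnb4 was at -1.71 ± 1.14 (adjusted p = 0.536) with all libraries and 2.11 ± 0.58 (adjusted p = 0.307) without the 6, and at 1.86 without saline-sired female C alone, so its direction turned. Without the 6, both genes rest on fewer than 3 libraries per group. Chrnb4 then had 0.425 and 0.939 CPM in nicotine-sired, against 0.205 and 0.0938 CPM in saline-sired ventral females. The 6 libraries include the highest of each region in both genes, so the refits drop the extreme values themselves. The part of other tissue in the Chrna3 and Chrnb4 levels was not tested.

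Chrnb3, the accessory beta3 subunit, was highest in 3 libraries. It had 2.11 CPM in the ventral and 2.5 CPM in the dorsal library of nicotine-sired female A. That animal was the one raised in 4 of the 5 neocortex genes. The ventral library of saline-sired female C had 3.26 CPM. The remaining 21 libraries had 0.182 to 1.16 CPM. Chrnb3 and Chrna6 are neighbours on chromosome 8, 3481 bp apart, and beta3 is known to assemble with alpha6. In nicotine-sired female A, Chrna6 had 16 counts in the ventral and 18 counts in the dorsal library, its highest values, while it had 3 counts in saline-sired female C, where Chrnb3 had 110. Without the 6 libraries Chrnb3 averaged 0.49 ± 0.146 CPM in ventral and 0.433 ± 0.156 CPM in dorsal libraries. Its fold change by sire treatment in ventral females was -0.22 ± 0.82 with all libraries and 0.77 ± 0.47 (adjusted p = 0.79) without the 6, and in dorsal males 0.17 ± 0.76 with all libraries and -0.80 ± 0.56 (adjusted p = 0.5) without them. Without the 6, each of these groups had fewer than 3 libraries.

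Chrna1 and Chrnb1 encode subunits of the muscle receptor. The 6 skeletal muscle markers summed to 107 CPM in the ventral library of saline-sired female A and to 5.68 to 16.8 CPM elsewhere. In that library Chrna1 was at 0.911 CPM, inside its ventral range of 0.551 to 1.3 CPM, and Chrnb1 was at 0.501 CPM, inside its ventral range of 0.125 to 0.711 CPM. The highest Chrnb1 level, 0.774 CPM, was in the dorsal library of saline-sired male A, the one with raised olfactory bulb markers. By sire treatment, Chrnb1 in dorsal females had 0.358, 0.639 and 0.577 CPM in nicotine-sired animals, against 0.186, 0.244 and 0.279 CPM in saline-sired animals. The groups did not overlap, at 16, 25 and 22 counts against 7, 9 and 10 counts, again without a share over all genes beside it. The fold change was 1.14 ± 0.51 (edgeR adjusted p = 0.359), and 0.62 ± 0.44 (adjusted p = 0.633) with the choroid plexus level in the fit. Chrna2 had 5 to 25 counts per library in all groups, and its fold changes by sire treatment ran from 0.19 to 0.53 with none called. Without the 6 libraries they ran from -0.19 in ventral females to 1.21 in dorsal males, and without 1 library from -0.16 to 1.08, so no direction is read from them.

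**Figure D4:**
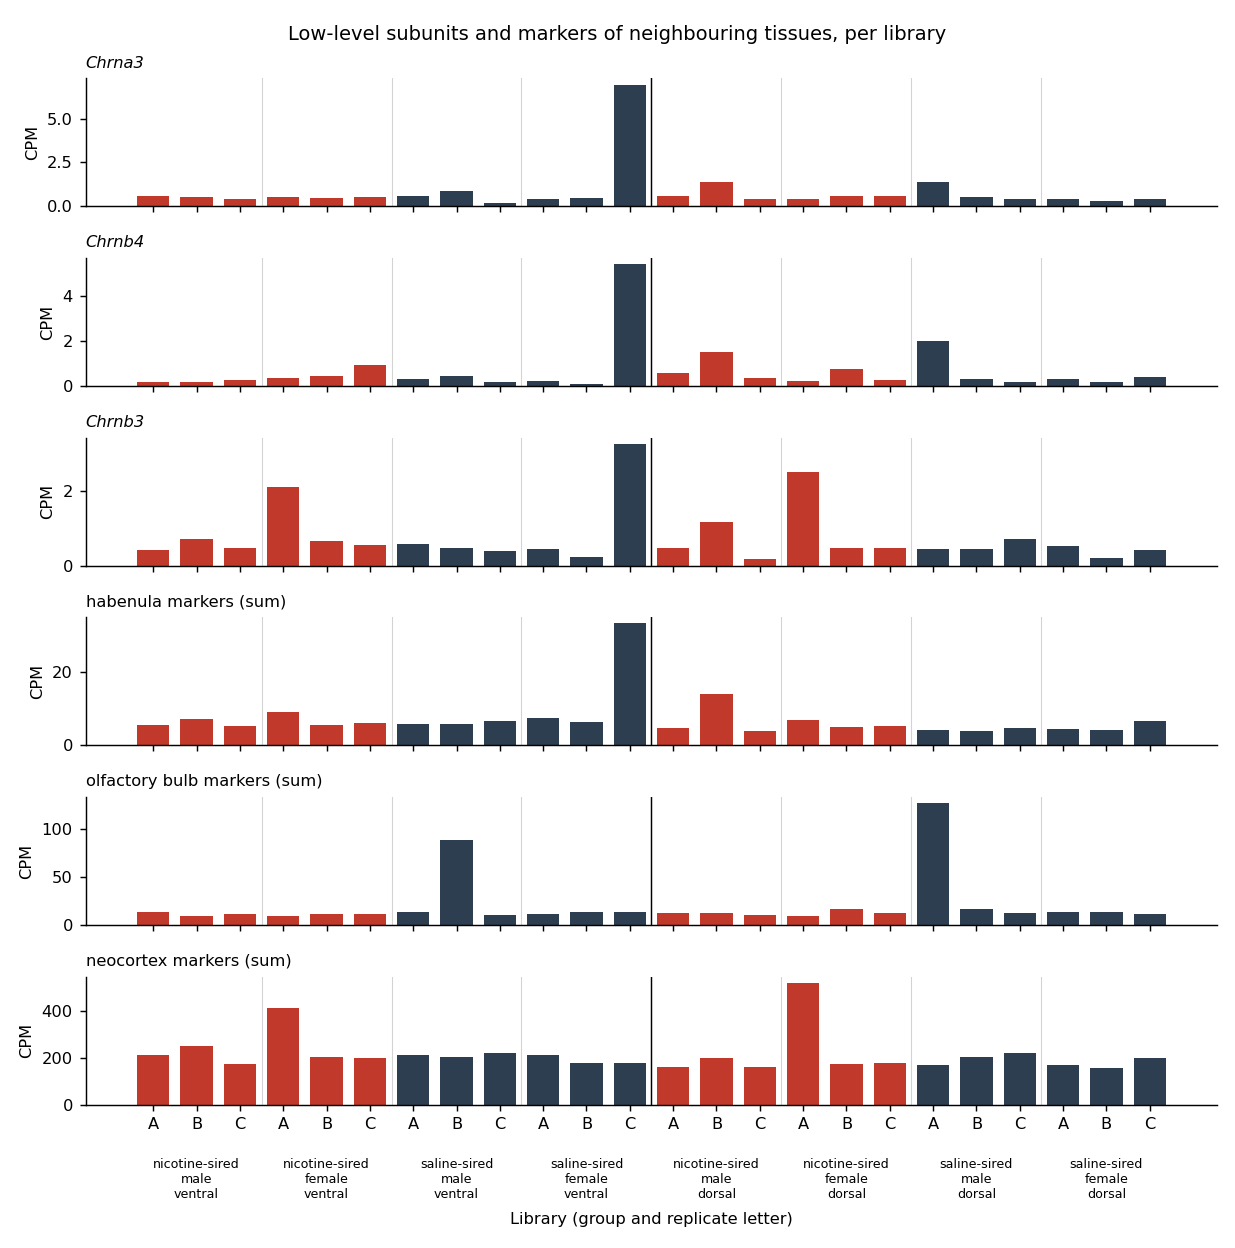
CPM of Chrna3, Chrnb4 and Chrnb3 and summed CPM of habenula, olfactory bulb and neocortex markers in each of the 24 libraries, ventral on the left and dorsal on the right, red for nicotine-sired and dark blue for saline-sired; all axes start at 0. The ventral library of saline-sired female C stands out for Chrna3 (6.94), Chrnb4 (5.4), Chrnb3 (3.26) and habenula markers (33.3), and both libraries of nicotine-sired female A stand out for Chrnb3 and neocortex markers.

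Lists of other genes of nicotinic signalling were read against the 14.3% of all genes higher and 14.9% lower in ventral hippocampus. Of 9 genes of the Ly6 type, whose proteins bind or modulate nicotinic receptors, 7 were tested and 5 were higher and 0 lower in ventral hippocampus, with a median of 0.35 against -0.01 over all genes. Ly6h averaged 192 ± 26.8 CPM in ventral and 121 ± 19.3 CPM in dorsal libraries (0.67 ± 0.06, adjusted p = 8.7e-08), and Lypd6 was higher by 0.31 ± 0.08 (adjusted p = 0.00563). Of 18 receptor assembly and trafficking genes, 7 were higher and 1 was lower, with a median of 0.06. Tmem35a, which encodes the receptor chaperone NACHO, averaged 66.9 ± 4.84 CPM in ventral and 48.2 ± 4.82 CPM in dorsal libraries (0.48 ± 0.04, adjusted p = 1.8e-07). The neuregulin receptor gene Erbb4 was higher by 0.50 ± 0.10 (adjusted p = 0.0012), and Dok7, an adaptor of the muscle synapse, by 0.21 ± 0.06 (adjusted p = 0.00797).

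Of 7 genes of acetylcholine synthesis, transport and breakdown, 6 were tested and 1 was higher and 1 lower in ventral hippocampus, near the share over all genes, with a median of 0.13. The esterase gene Ache was at 0.15 ± 0.04 (adjusted p = 0.00681), and Prima1, the membrane anchor of the esterase, was at -0.59 ± 0.17 (adjusted p = 0.0106). Of the 5 muscarinic receptor genes (median 0.13), 2 were higher and 2 lower, with Chrm5 (1.95 ± 0.595 CPM in ventral and 1.04 ± 0.537 CPM in dorsal libraries, adjusted p = 3.0e-05) and Chrm4 (0.58 ± 0.10, adjusted p = 1.8e-04) higher and Chrm3 (-0.65 ± 0.06, adjusted p = 2.3e-07) and Chrm1 (-0.26 ± 0.05, adjusted p = 5.4e-04) lower. By sire treatment, the calnexin gene Canx, an endoplasmic reticulum chaperone, was the only gene of these lists to pass, in dorsal males (-0.31 ± 0.07, adjusted p = 0.0365). That call ended without the filter on low counts (adjusted p = 0.06), with a replicate block (0.078), without the libraries with raised markers (0.0602) and in 10 of 12 refits without 1 library (0.0549 to 0.147).

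Likeness to the 4 region-called members was measured over the 24 libraries as the root mean square difference of centred log2 CPM among 13382 genes. For Chrna4, whose own spread was 0.44 on the log2 scale, the nearest genes were Cyb561 (0.16), Lgi2 (0.17) and Btbd11 (0.17). For Chrna7, with a spread of 0.32, they were Dgkg (0.14), Pcdh19 (0.14) and Tnfaip8l3 (0.15). For Chrna5, with a spread of 0.39, they were Kcnd2 (0.20), Cog5 (0.21) and Neurod6 (0.21). For Chrnb2, whose spread was 0.13, they were Fam53c (0.06), Clcn7 (0.07) and Grid1 (0.07).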

How the data were processed

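RNA came from frozen ventral and dorsal hippocampus and was sequenced single-end from a stranded mRNA kit, per the labels' protocols. TopHat2 2.1.0, Cufflinks and Cuffdiff 2.2.1.3 are listed without a role, per the submitters' processing notes, as are the builds mm10 and GRCm38. The authors deposited raw read counts for 51912 genes in 24 libraries; no source used here gives the counting tool, its strand setting or its annotation.

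Counts were tested with edgeR 4.0.16 in R 4.3.3 (TMM, filterByExpr by group, robust two-sided quasi-likelihood F test, Benjamini-Hochberg adjustment over all genes tested, threshold 0.05). Each region was fitted alone (12 libraries, 4 groups), and regions were compared in 1 fit of 24 libraries. That fit had 1 mean per group and no animal term. The replicate block gives the animal as a term in the region fit. p-values measure the spread between libraries of a group. The alternatives were DESeq2 1.42.0, RLE size factors, keeping genes with low counts, dropping the robust option, a replicate block, a choroid plexus term, the spread of all 24 libraries, and leaving out each replicate. Leaving out 6 libraries with raised markers, and the 3 marker lists behind it, were chosen after seeing the data. The members, lists and tests were chosen with earlier results of these data known. All 10 members are named, with at most 4 called genes per list and comparison (smallest p) and the 3 genes most like each region-called member; values of 1 called gene are not reported here. The script was tested on simulated data.

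The 2 libraries of an animal pair by the title: their deviations from group means correlated over genes with a median r of 0.29 (range -0.135 to 0.73), above 0.1 in 8 of 12. In nicotine-sired animals r ran from 0.282 to 0.73, and in saline-sired animals from -0.135 to 0.298. All pairs not above 0.1 were saline-sired, so there the within-animal counts and the animal block rest mainly on the titles. Among these pairs were saline-sired male A (-0.135) and male B (0.0857). Olfactory bulb markers were raised in the dorsal library of male A and the ventral library of male B. Whether these 2 libraries belong to 1 animal was not tested. RPKM used GENCODE M21 exon lengths; 51633 gene identifiers were found there. Log2 CPM used a pseudocount of 0.1 for likeness and for steps within animals. Promoters came from RefSeq. Figures were drawn with matplotlib 3.10.9.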

Additional observations from a re-analysis of the deposited data

Results flagged for a closer look

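Within the 6 libraries of a sire treatment and region, single libraries stood apart for 4 of the 10 members. By Dixon's criterion (a gap above 0.625 of the range), 9 of 40 sets had 1 extreme value. The criterion marks about 1 in 20 independent sets of normally distributed values. CPM of scarce genes need not be so distributed, and the sets share libraries. The share of sets marked over all genes was not taken, so no excess is read from the 9. The 9 values fell in 5 libraries, and each was the highest of its set. The ventral library of saline-sired female C had 6.94 CPM of Chrna3 (0.211 to 0.864 in the other 5), 3.26 CPM of Chrnb3 (0.219 to 0.576) and 5.4 CPM of Chrnb4 (0.0938 to 0.432). The dorsal library of saline-sired male A had 1.41 CPM of Chrna3 (0.325 to 0.522), 0.774 CPM of Chrnb1 (0.186 to 0.375) and 1.99 CPM of Chrnb4 (0.175 to 0.39). The dorsal library of nicotine-sired male B had 1.4 CPM of Chrna3 (0.425 to 0.603). The ventral library of nicotine-sired female A had 2.11 CPM of Chrnb3 (0.414 to 0.699), and that of nicotine-sired female C had 0.939 CPM of Chrnb4 (0.191 to 0.425). Of these 5 libraries 4, all but nicotine-sired female C, are among those with raised markers of habenula, olfactory bulb or neocortex. The marker lists were chosen after seeing the data, so this overlap is a description and not a test. Refits without these 4 libraries drop the extreme values themselves, and the part of those tissues in the values was not tested.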

How the results depend on the processing

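The count of 4 members called between regions ran from 3 to 4 over the refits without 1 animal. In saline-sired offspring the count of 1 became 2 with DESeq2, 3 with the animal as a replicate block, 0 without the libraries with raised markers, and 0 to 3 without 1 animal. In nicotine-sired offspring the count of 3 ran from 1 to 4 without 1 animal. By sire treatment, the count of 0 in dorsal males became 1 (Chrna5) without the filter on low counts and with DESeq2, and 0 to 1 without 1 library. For the dorsal sex difference and among dorsal title groups it became 1 under those settings and with the spread of all 24 libraries, and 0 to 1 without 1 library. In the other 9 sire-treatment or sex comparisons, and for the treatment difference between regions, it was 0 under every setting. Title letters within a region gave no shared deviation (mean r from -0.111 to 0.0359 over genes), and a replicate block of letters called 0 members. No called member changed sign under any setting run. The cause of these changes was not tested.

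Counts over all genes moved more. By sire treatment in dorsal males 341 genes were called, with 164 to 876 over the other settings, and in ventral males 617, with 528 to 894. Over both sexes the counts were 15 (6 to 205) in dorsal and 337 (186 to 681) in ventral, and in females 6 (2 to 260) and 6 (6 to 269). Between sexes they were 428 (217 to 1282) and 205 (133 to 523) for the treatment effect, 35 (28 to 111) and 56 (39 to 238) for female minus male, and 287 (119 to 1340) and 701 (614 to 1520) among title groups. Between regions in saline-sired offspring 2877 genes were called (2215 to 4435). Without 1 library, in the same order of comparisons, dorsal counts ran over 87 to 624 in males, 0 to 19 over both sexes, 0 to 12 in females, 76 to 837 for the sex difference, 22 to 46 for female minus male and 90 to 473 among title groups. Ventral counts ran over 284 to 671, 176 to 457, 0 to 114, 84 to 463, 29 to 125 and 372 to 813. Without 1 animal, region counts ran over 1097 to 3403 in saline-sired and 2117 to 3576 in nicotine-sired offspring (3347 with all animals). Chrna2, with 5 to 25 counts per library, and Chrnb1, with 4 to 33, had standard errors of 0.28 to 0.56 for sire treatment over both sexes or within a sex, so depth limits what can be said of them.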
